A study of Citrus maxima with 6 samples.

Results

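Glutathione S-transferase genes were compared in the ripe sarcocarp of red- and white-sarcocarp pomelo. A gene was counted as a member when its deposited annotation held the words glutathione S-transferase or glutathione transferase, which gave 44 of 30123 genes. The red group was Citrus maxima Merr. var. Tubtim Siam and the white group was Citrus maxima (Burm.) Osbeck, each with 3 biological repeats. All 6 libraries came from pulp of healthy ripe fruit, and no treatment of the fruit is described. Each repeat was made from the mixed sarcocarp of several fruits, so the spread between fruits was not measured. The groups are different cultivars, so the colour of the sarcocarp and every other difference between them cannot be told apart.

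Glutathione S-transferases join the tripeptide glutathione to reactive or foreign compounds, and many also reduce peroxides or carry hydrophobic molecules without changing them. Plants have large tau and phi classes that are specific to them, beside zeta, theta and lambda classes and membrane-bound forms. In Arabidopsis the phi protein TT19 (GSTF12) binds anthocyanins and is needed for their delivery to the vacuole, and conjugates with glutathione are pumped into the vacuole by transporters of the ABCC type. The class of each pomelo gene was taken here from its best Arabidopsis hit, so it is a class by similarity, and the roles given are those of the Arabidopsis genes.

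By this assignment 22 members were tau, 8 phi, 5 lambda, 2 zeta and 2 theta genes. Another 2 matched glutathionyl-hydroquinone reductases, and single genes matched TCHQD, a microsomal glutathione S-transferase and the mPGES2-like protein AT5G42150. The values are FPKM, fragment counts scaled by gene length and library size, which can be compared between genes. Of the 44 members 25 averaged 1 FPKM or more in either cultivar and were tested. A further 14 were listed at 0 in all 6 libraries, and 5 were above 0 in some library but below a mean of 1 in both cultivars. A filter of this kind also admits a gene through the cultivar where it is high. Of the 25 tested members 6 reached a mean of 1 in only 1 cultivar, and 3 of these passed both thresholds of the study.

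The libraries were similar in total, with FPKM sums between 812335 and 835575 and between 15920 and 16250 genes above 0. The deposited FPKM carries no sequencing depth, so precision rests on the 3 repeats. Pearson's r of log2(FPKM + 0.1) across the 14158 tested genes was 0.958 to 0.964 within a cultivar and 0.833 to 0.855 between cultivars, taken across genes that are not independent replicates. Markers of other tissues were summed. Those of green tissue (9 genes, none at 0) were at 442 to 463 FPKM in red and 473 to 590 FPKM in white, those of cuticle (8 genes, none at 0) at 19.0 to 26.3 and 8.01 to 23.3 FPKM, and those of xylem (7 genes, 1 at 0) at 16.2 to 25.0 and 8.2 to 19.9 FPKM. Seed storage and oil body markers (8 genes, 2 at 0 in every library) summed to 10.3 to 32.3 FPKM in red and 0.230 to 0.330 FPKM in white. The xylem sum was carried by Cg8g000170, and the other 6 xylem genes summed to 0.54 to 1.03 FPKM in red and 2.73 to 7.46 FPKM in white. Of the 15 tested markers 5 passed both thresholds (33.3%, against 6.76% of all tested genes). All 3 tested seed markers and the light-harvesting gene Cg2g044410 were higher in red, and the xylem gene Cg4g023980 (IRX3) was lower. The 3 seed markers reached a mean of 1 FPKM only in red, and Cg4g023980 only in white. The filter thus admitted these genes through the cultivar where they are high. Without a fold threshold (adjusted p of at most 0.05 in limma) others lay the opposite way. The light-harvesting gene Cg2g044400, the most abundant green tissue marker, was lower in red (mean 249.5 against 462.6 FPKM), as was Cg6g019580 (RBCS1A). The xylem gene Cg8g000170 was higher in red. The calls of Cg6g019580 and Cg8g000170 were lost under 6 and 11 alternative settings. The tested seed markers thus differed with the cultivar, while the tested green tissue and xylem markers lay in both directions. The part of these tissues in the results on the family was not tested.

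The family was a steady and fairly abundant part of the pulp transcriptome. Its summed FPKM was 2056.19, 2041.78 and 1940.29 in the red libraries and 2329.02, 2197.28 and 2161.93 in the white libraries. Every white library lay above every red library, and the mean in red was 0.903 of that in white. No test was made on sums over members. The family made up between 0.239% and 0.284% of all FPKM. Without its most abundant gene the ratio was 0.860.

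**Figure D1:**
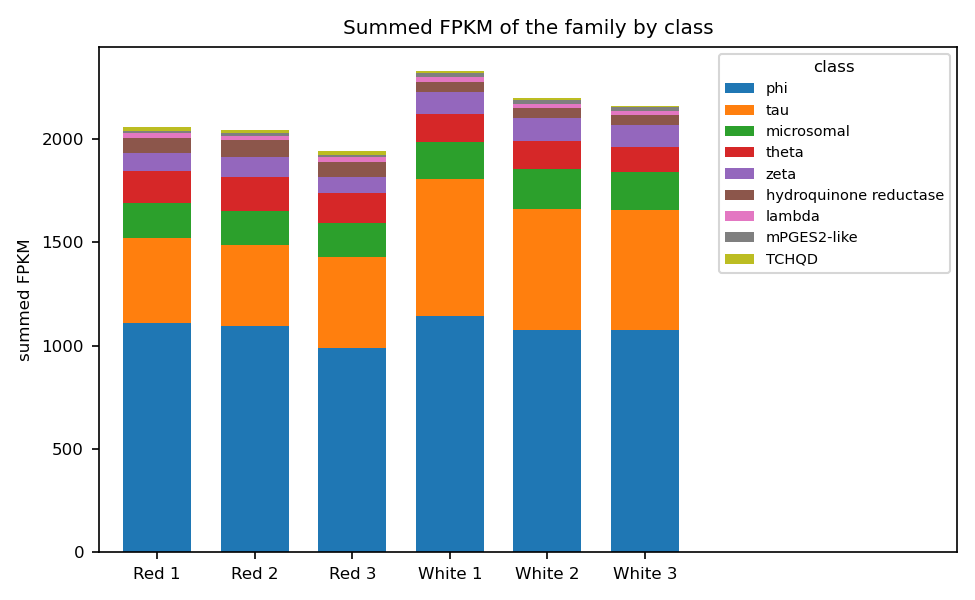
Summed FPKM of the 44 glutathione S-transferase genes in each library, stacked by class. The phi segment is of similar height in all 6 bars, while the tau segment reaches 388 to 440 FPKM in the red libraries and 578 to 660 FPKM in the white libraries.

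Phi genes supplied the largest part of this total, between 49.0% and 53.9% in each library, and tau genes between 19.0% and 28.3%. The phi sum was 1065 ± 65.9 FPKM in red and 1100.1 ± 39.1 FPKM in white (SD, n = 3), and the ranges overlapped. The tau sum was 413 ± 25.9 FPKM in red and 607 ± 45.9 FPKM in white (SD, n = 3), and all white libraries were above all red libraries. The difference in the family total therefore lay mainly in the tau class. In pulp, fewer cells that express a gene and less RNA per cell cannot be told apart.

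Single genes were tested with limma on log2(FPKM + 0.1), with p-values adjusted over all 14158 tested genes. The study's thresholds were applied, a 4-fold change in either direction (2 on the log2 scale) together with an adjusted p no higher than 0.01. All log2 fold changes are red over white after adding 0.1 to each FPKM, so those of low genes come out too small. Ratios given as times or fold are of mean FPKM without this addition, with the direction stated. Of the 25 tested members 5 passed both thresholds, against 6.76% of all tested genes. Of these, 2 were higher in red (background 3.11%) and 3 were lower (background 3.65%). The median log2 fold change of the 25 members was -0.16, and that of all tested genes was 0.02.

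At an adjusted p of at most 0.05, without a fold threshold, 15 of the 25 members differed (60.0%), against 45.2% of all tested genes. Here 7 were higher in red (background 22.6%) and 8 were lower (background 22.5%). The number of higher members was 4 without any 1 of red replicates 1 and 2 and white replicates 2 and 3. Red and white libraries did not overlap in 18 of the 25 members, against 57.7% of all tested genes. Red was above white in 8 of them (background 29.4%) and white above red in 10 (background 28.3%). The members' median size of change was 0.70 on the log2 scale and that of all tested genes was 0.40. Of the 25 members 15 stayed within a log2 change of 1. Across all tested genes a larger share did, 11210 of 14158.

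**Figure D2:**
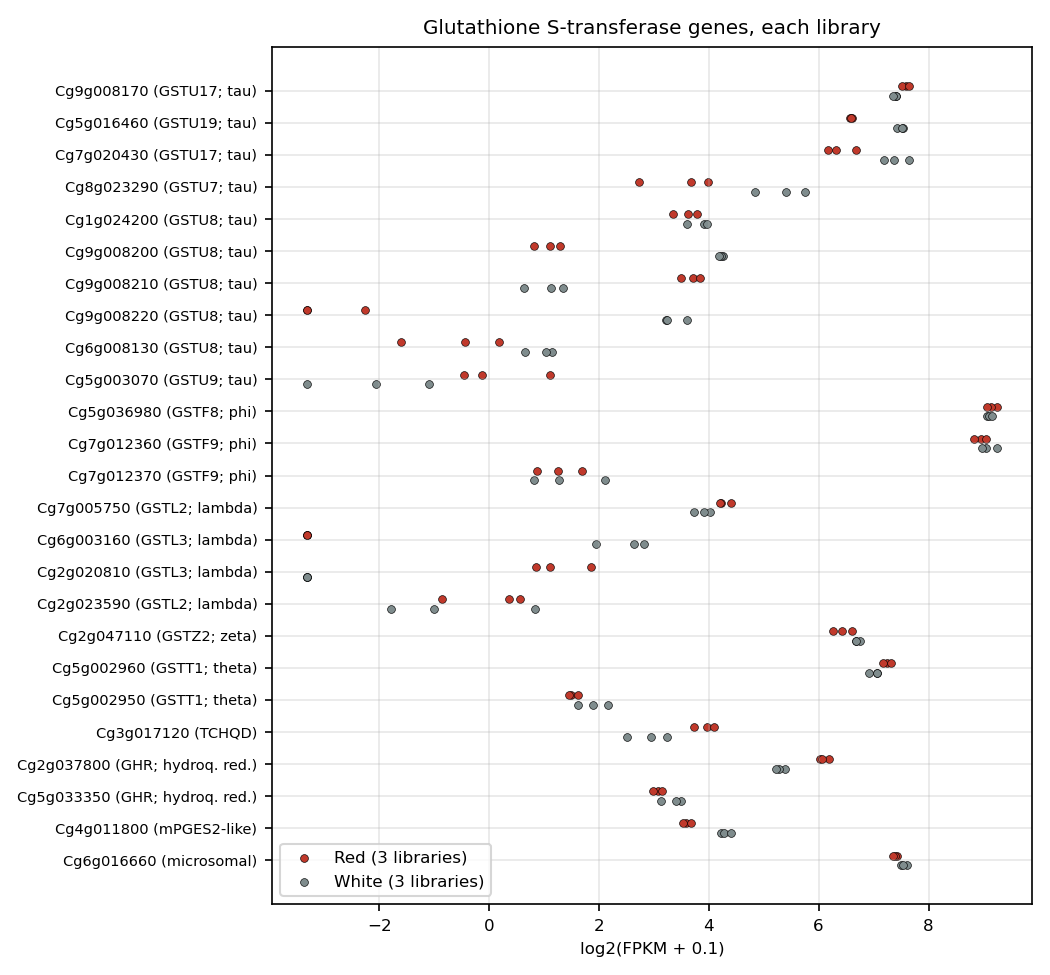
Values of log2(FPKM + 0.1) in each library for the 25 tested members, ordered by class and mean level, with the best Arabidopsis hit in brackets (GHR, glutathionyl-hydroquinone reductase). Each point is 1 library, and listed values of 0 lie at the left edge. The most abundant phi genes show red and white points on top of each other, and the points are far apart in several low tau and lambda genes.

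The differences that passed both thresholds were all in genes of low to moderate level. None of the 9 members that averaged 50 FPKM or more passed both thresholds in limma, and their log2 fold changes ran from -1.01 to 0.79. Of these 9 members 4 differed at an adjusted p of at most 0.05, against 45.2% of all tested genes, and 6 at an unadjusted p below 0.05, against 53.8%. All 5 genes that passed were among the 16 members with a lower mean. The same order held across all tested genes, where 2.88% of those averaging 50 FPKM or more and 7.78% of the others passed.

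Among the phi genes, Cg5g036980 was the most abundant member of the whole family. Its best hit, GSTF8, is a stress-responsive gene in Arabidopsis. The gene had 610.95, 564.93 and 534.05 FPKM in the red libraries and 534.77, 547.41 and 573.02 FPKM in the white libraries. The ranges overlapped, and the log2 difference of 0.05 had a 95% interval from -0.16 to 0.25 (limma adjusted p = 0.689). Its sign turned to -0.0059 without red replicate 1.

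Cg7g012360, with the hit GSTF9, was next, with 495.75, 528.15 and 452.35 FPKM in red and 607.44, 527.27 and 500.69 FPKM in white. Its ranges overlapped too (log2 fold change -0.15, standard error 0.11, adjusted p = 0.294 from limma). These genes and the tau gene Cg9g008170 were the 3 most abundant members by mean, and together they held between 56.3% and 63.1% of the family's FPKM in each library. Their sum was 1253 ± 59.8 FPKM in red and 1265 ± 41.2 FPKM in white (SD, n = 3).

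The other phi genes were low or silent. Cg7g012370 had 1.74 to 3.13 FPKM in red and 1.67 to 4.21 FPKM in white (adjusted p = 0.800 from limma). None of the 3 tested phi genes passed either the thresholds in limma or an unadjusted p below 0.05. Cg7g012400 and Cg3g024710 stayed at or below 0.76 FPKM, and Cg5g036960 and Cg5g036970, whose identifiers are next to that of the most abundant member, were listed at 0 in every library.

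Cg6g016710 was the only member with the anthocyanin carrier TT19 as its best hit. It was listed at 0 in all 3 red and all 3 white libraries, and the authors' mean normalized count for it over the 6 libraries was 0.258. A difference between the cultivars was therefore not detectable for this gene.

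Tau genes held 3 of the 5 members that passed both thresholds. Of the 10 tested tau genes these were 1 higher and 2 lower in red, against 6.76% of all tested genes in either direction. At an adjusted p of at most 0.05, 2 tau genes were higher and 6 lower, against 45.2% of all tested genes. The other 12 tau genes were not tested, and 10 of them were listed at 0 in all libraries. The abundant tau genes Cg5g016460 and Cg7g020430 were both lower in red at the adjusted p alone.

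Cg5g016460 has the hit GSTU19, one of the major tau enzymes of Arabidopsis. It had 94.61, 97.75 and 95.76 FPKM in red against 185.04, 172.23 and 182.93 FPKM in white. The repeats were tight and far apart, and the mean in white was 1.87 times that in red (log2 fold change -0.91, standard error 0.07, adjusted p = 0.000131 from limma). Over the 17 alternative settings its log2 fold change stayed between -0.94 and -0.85. Its neighbours by identifier, Cg5g016440 and Cg5g016450, were listed at 0 in every library.

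Cg7g020430, with the hit GSTU17, a gene that in Arabidopsis affects responses to abscisic acid and drought, had 79.46, 72.20 and 102.76 FPKM in red. It had 198.97, 165.34 and 145.40 FPKM in white. All white values were above all red values although the spread was wider than for the gene before (log2 fold change -1.01, standard error 0.16, adjusted p = 0.00265 from limma). Cg9g008170 has the same Arabidopsis hit and lay in the other direction, with 191.57, 182.57 and 198.85 FPKM in red and 169.72, 170.04 and 163.33 FPKM in white. Its red libraries were all above its white libraries, but the difference was 1.14-fold and missed the adjusted p of 0.05 (log2 fold change 0.19, standard error 0.07, adjusted p = 0.0631 from limma). With quantile normalization it passed (log2 fold change 0.27, adjusted p = 0.0157).

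**Figure D3:**
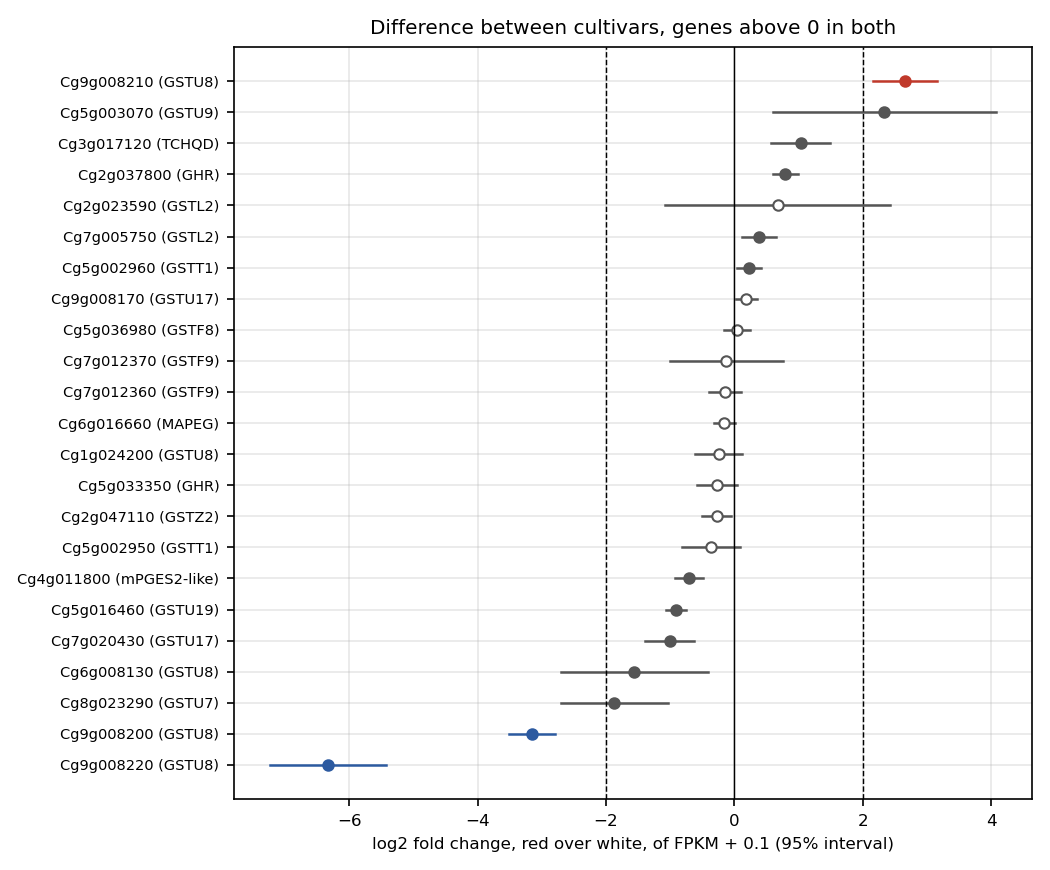
Log2 fold change (red over white, of FPKM + 0.1) with its 95% interval from limma for the 23 tested members above 0 in some library of both cultivars. Filled points had an adjusted p of at most 0.05, coloured points passed both thresholds, and dashed lines mark the threshold of 2. Cg9g008210 stands at 2.65, and Cg9g008200 and Cg9g008220 stand at -3.15 and -6.32.

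A run of 6 tau genes with consecutive identifiers, Cg9g008170 to Cg9g008220, held all 3 tau genes that passed both thresholds. Besides Cg9g008170, these are Cg9g008180 and Cg9g008190, listed at 0 in every library, and Cg9g008200, Cg9g008210 and Cg9g008220. The last 5 share the hit GSTU8. Cg9g008200 had 2.05, 2.34 and 1.66 FPKM in red and 19.11, 18.49 and 18.09 FPKM in white, so that the mean in white was 9.20 times that in red. On the log2 scale the difference was -3.15 with a standard error of 0.15 (limma adjusted p = 2.67e-05). By the listed FPKM this gene was thus lower in red, with narrow repeats in both cultivars.

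Cg9g008210 showed the opposite pattern, with 13.02, 11.19 and 14.28 FPKM in red and 2.43, 1.45 and 2.08 FPKM in white. The mean in red was 6.46 times that in white (log2 fold change 2.65, standard error 0.21, adjusted p = 0.000167 from limma). Cg9g008220 was listed at 0, 0 and 0.11 FPKM in red and had 12.03, 9.28 and 9.38 FPKM in white. It passed both thresholds as lower (log2 fold change -6.32, standard error 0.38, adjusted p = 6.15e-05 from limma), but with red values at or near 0 the size depended on the pseudocount and ran from -8.79 to -3.43 over the alternative settings. The next identifiers, Cg9g008230 and Cg9g008240, belong to the seed markers that were higher in red.

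**Figure D4:**
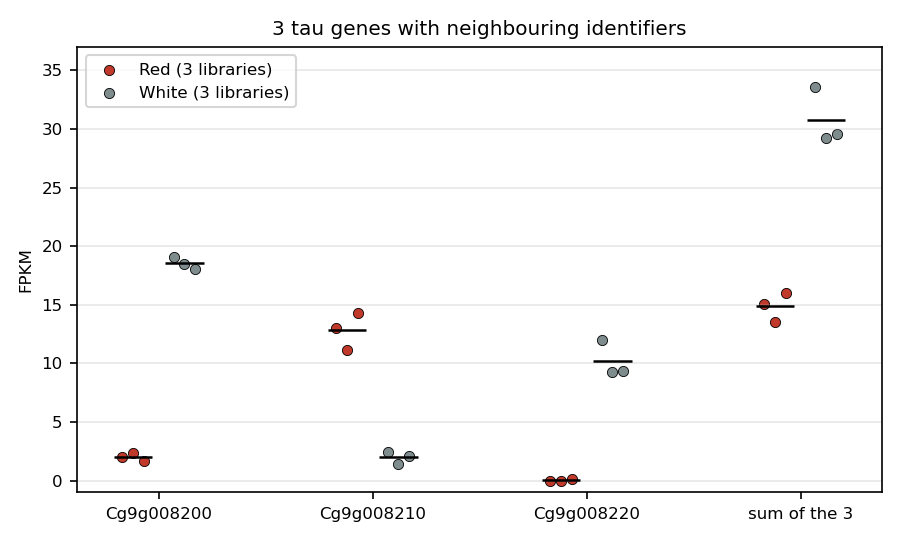
FPKM of 3 tau genes with consecutive identifiers and of their sum, with 1 point per library and a line at the mean of 3. Cg9g008210 is high in red, at 11.19 to 14.28 FPKM, and Cg9g008200 and Cg9g008220 are high in white. The sum lies between 13.5 and 16.1 FPKM in red and between 29.2 and 33.6 FPKM in white.

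The split of reads between these 3 copies is uncertain. So are the direction of each copy and its place among the members past both thresholds, including Cg9g008210 among the 2 higher in red. RSEM divides reads that fit several copies between them, and the similarity of the copies was not examined. Added up, the 3 copies had 15.07, 13.53 and 16.05 FPKM in red and 33.57, 29.22 and 29.55 FPKM in white. Their summed FPKM was thus 2.07 times higher in white by the means, with no overlap. If the copies differ in length, this sum depends on the split as well, so the direction of the group is also uncertain. The authors' mean normalized count, made by a separate counting, was 57.0 for Cg9g008200, 164 for Cg9g008210 and 36.1 for Cg9g008220. Per FPKM this was 5.54, 22.1 and 7.03 counts, so this ratio differed between the copies, and gene length, which also moves it, was not used. Across all tested genes the median was 31.0 counts per FPKM, and 90% lay between 7.39 and 80.9. Cg9g008200 and Cg9g008220 lay below this range, and Cg9g008210 lay within it.

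Of the other GSTU8 hits Cg1g024200 had 12.19, 13.77 and 10.07 FPKM in red and 15.03, 15.58 and 12.09 FPKM in white, and its ranges overlapped (adjusted p = 0.232 from limma). Cg6g008130 was low, with 1.04, 0.23 and 0.64 FPKM in red against 2.10, 1.47 and 1.96 FPKM in white. It was lower in red at the adjusted p alone (log2 fold change -1.56, standard error 0.49, adjusted p = 0.0355 from limma), and lost this call without any 1 library except red replicate 1 (adjusted p 0.0527 to 0.0961). Cg6g005710, Cg6g005720 and Cg6g007940 were listed at 0 throughout.

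Cg8g023290 has the hit GSTU7, which in Arabidopsis responds to oxidative stress and herbicides. It had 15.78, 6.51 and 12.70 FPKM in red and 53.83, 28.44 and 42.35 FPKM in white. The mean in white was 3.56 times that in red and the groups did not overlap. At -1.87 on the log2 scale, with a standard error of 0.36 (limma adjusted p = 0.00528), it fell short of the fold threshold. It passed both thresholds without red replicate 1 or without white replicate 2. Its adjusted p in limma rose above 0.01 under 4 settings (0.0121 to 0.0211). These were the fit without a trend and leaving out red replicate 3, white replicate 1 or white replicate 3. Its neighbours Cg8g023300 and Cg8g023310 were not tested and stayed at or below 1.64 and 1.21 FPKM. The first was listed at 0 in every red library and passed both thresholds without white replicate 3, where its white mean was above 1.

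Cg5g003070, with the hit GSTU9, was the remaining tau gene higher in red at the adjusted p alone. It had only 0.63, 0.82 and 2.05 FPKM in red and 0.37, 0.14 and 0 FPKM in white (log2 fold change 2.33, standard error 0.74, adjusted p = 0.0370 from limma). The repeats were wide, and the 95% interval ran from 0.60 to 4.07. The call was lost under 6 alternative settings, among them leaving out red replicate 1 or 2 or white replicate 2 or 3 (adjusted p 0.0571 to 0.0867). Its neighbour Cg5g003060 was listed at 0 in all libraries, as were Cg7g013560 and Cg1g024070.

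Lambda glutathione S-transferases carry a cysteine at the active site in place of the serine of tau and phi enzymes. They act on bound glutathione rather than forming conjugates, and in Arabidopsis they can release flavonols from glutathione. Of the 4 tested lambda genes 2 passed both thresholds, against 6.76% of all tested genes, and they lay in opposite directions. These 2 genes reached a mean of 1 FPKM in only 1 cultivar, so the filter admitted them through the cultivar where they are high. Their share is therefore not evidence of an excess in this class. Both have the hit AT5G02790 (GSTL3).

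Cg6g003160 had 6.14, 3.75 and 6.94 FPKM in white, while every red library listed it at 0 (adjusted p = 9.06e-05 from limma). Cg2g020810 was listed at 0 in all 3 white libraries and had 3.51, 2.05 and 1.70 FPKM in red (adjusted p = 0.000485 from limma). Each of these lambda genes was thus seen in 1 cultivar only, and the size of such a difference depends on the pseudocount. With a pseudocount of 1 Cg2g020810 no longer reached the fold threshold, and the only member higher in red was then Cg9g008210.

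The lambda gene with the highest level was Cg7g005750, with the hit GSTL2. It had 21.02, 18.49 and 18.30 FPKM in red and 16.16, 14.95 and 13.13 FPKM in white. It was 1.31-fold higher in red at the adjusted p alone (log2 fold change 0.39, standard error 0.11, adjusted p = 0.0286 from limma), a call that was lost without red replicate 1 or 2 or white replicate 2 or 3 (adjusted p 0.0543 to 0.103). Cg2g023590 and Cg2g023610 share this hit and had at most 1.68 and 0.98 FPKM, but the authors' mean normalized counts were 123 and 69.5. That is 140 and 231 counts per FPKM, above the range that held 90% of the tested genes, so the FPKM of these copies is uncertain. The lambda sum, at 22.7 ± 2.01 FPKM in red and 21.7 ± 2.07 FPKM in white (SD, n = 3), did not separate the cultivars.

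In the small classes the differences stayed near or below 2-fold. The zeta enzyme is a maleylacetoacetate isomerase of tyrosine breakdown. Cg2g047110, its abundant copy, had 85.75, 97.27 and 76.55 FPKM in red and 102.95, 107.98 and 102.67 FPKM in white, without overlap (log2 fold change -0.28, standard error 0.10, adjusted p = 0.0541 from limma). It passed an adjusted p of 0.05 with median-ratio scaling (0.0262) or without red replicate 2 (0.0207). The neighbour Cg2g047120 was listed at 0 in all libraries. The theta enzymes of Arabidopsis are peroxisomal and reduce organic hydroperoxides. Cg5g002960 had 150.60, 159.69 and 144.72 FPKM in red and 133.96, 133.03 and 120.51 FPKM in white, 1.17-fold higher in red at the adjusted p alone (log2 fold change 0.23, standard error 0.08, adjusted p = 0.0467 from limma). This call was lost under 9 of the 17 alternative settings, among them leaving out any 1 library except red replicate 3 (adjusted p 0.0505 to 0.132). Its neighbour Cg5g002950, at 2.63 to 4.37 FPKM, overlapped between the cultivars (adjusted p = 0.162 from limma).

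Glutathionyl-hydroquinone reductases remove glutathione from conjugated hydroquinones. Cg2g037800 had 64.62, 72.90 and 66.59 FPKM in red and 41.85, 38.65 and 37.04 FPKM in white. This was 1.74-fold higher in red, or 0.79 on the log2 scale with a standard error of 0.08 (limma adjusted p = 0.000489). The other copy, Cg5g033350, had 7.77 to 8.76 FPKM in red and 8.61 to 11.16 FPKM in white, with overlap (adjusted p = 0.131 from limma). Only the abundant copy of this pair thus passed the test, and the difference between the copies was not tested.

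The TCHQD gene Cg3g017120 had 15.46, 13.22 and 16.93 FPKM in red and 9.29, 7.64 and 5.61 FPKM in white, 2.02-fold higher in red (log2 fold change 1.03, standard error 0.20, limma adjusted p = 0.00533). Cg4g011800, the mPGES2-like gene, was lower in red, with 11.89, 12.68 and 11.51 FPKM against 18.66, 19.41 and 20.95 FPKM (log2 fold change -0.70, standard error 0.09, adjusted p = 0.00122 from limma). The microsomal gene Cg6g016660 encodes a membrane protein unrelated to the soluble enzymes. It had 172.18, 166.84 and 163.11 FPKM in red and 180.68, 194.23 and 184.49 FPKM in white (log2 fold change -0.16, standard error 0.07, adjusted p = 0.104 from limma). The white values of Cg6g016660 were all higher, but the difference missed the threshold.

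Many members have neighbours of the same family. With members joined when their identifiers lay at most 30 apart, a limit chosen after the data were seen, 28 of the 44 fell into 10 runs and 16 stood alone. In 8 of the 10 runs no other gene of the table had an identifier in between. Copies within a run could differ widely in level. In the run of the most abundant member, for example, 1 of 3 genes carried all of the FPKM, and in the run of Cg5g016460 the same held. The run Cg9g008170 to Cg9g008220 as a whole reached 206 ± 9.42 FPKM in red, against 198 ± 5.25 FPKM in white (SD, n = 3), since Cg9g008170 outweighed its neighbours.

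Genes that make, use and recycle glutathione were compared in the same fit. They were listed by 36 Arabidopsis hits, of which 26 had a pomelo gene, and the list held 37 genes outside the family. Of its 28 tested genes 0 passed both thresholds in limma, against 6.76% of all tested genes. At an unadjusted p below 0.05 there were 11, against 53.8% of all tested genes. At an adjusted p of at most 0.05, 4 were higher and 4 lower in red, 28.6% in all against 45.2% of all tested genes. The median log2 fold change of the list was 0.02.

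**Figure D5:**
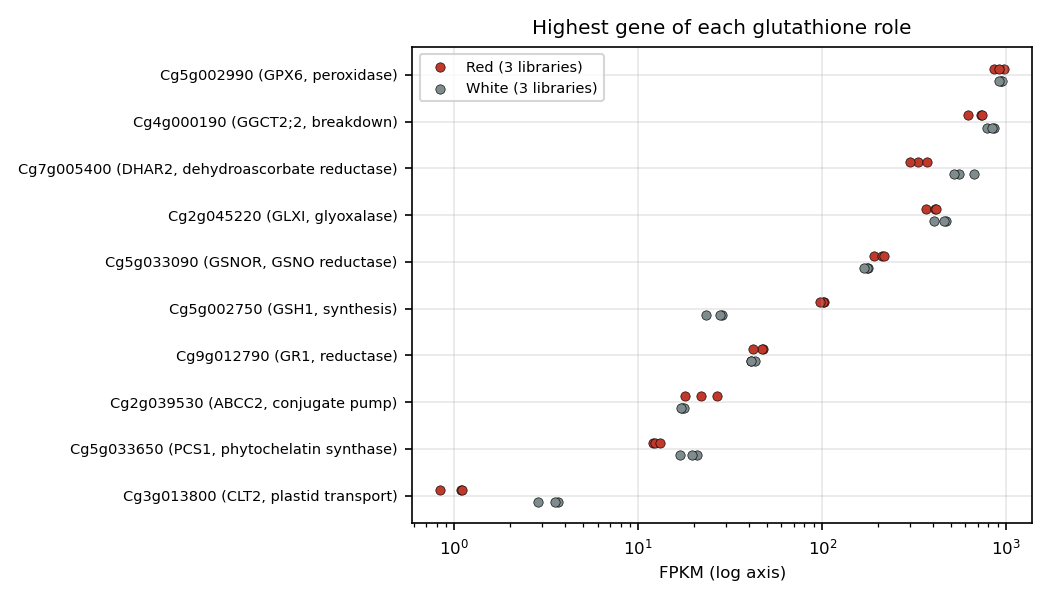
FPKM on a log axis of the most abundant gene of each role in glutathione metabolism, with 1 point per library. Cg5g002750 (GSH1) lies at 96.7 to 101.86 FPKM in red and 23.3 to 28.35 FPKM in white, and Cg7g005400 (DHAR2) and Cg3g013800 (CLT2) are lower in red, while the points of the peroxidase gene Cg5g002990 overlap.

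The clearest difference was in the first step of synthesis. Cg5g002750 encodes glutamate-cysteine ligase (GSH1), the rate-limiting enzyme of glutathione synthesis. It had 101.86, 100.54 and 96.70 FPKM in red and 28.35, 27.82 and 23.30 FPKM in white. The mean in red was 3.76 times that in white, which at 1.91 on the log2 scale was just under the fold threshold (limma adjusted p = 2.88e-05, standard error 0.09). The second enzyme, glutathione synthetase (GSH2, Cg2g030170), had 7.24 to 10.91 FPKM in red and 10.75 to 14.28 FPKM in white (log2 fold change -0.44, standard error 0.18, adjusted p = 0.0866 from limma). Without red replicate 2 it passed, lower in red (adjusted p = 0.0402).

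Recycling and consumption of glutathione showed smaller differences. Dehydroascorbate reductases belong to the same protein superfamily and use glutathione to restore ascorbate. Cg7g005400 (DHAR2) had 330.36, 298.47 and 372.49 FPKM in red and 665.22, 550.14 and 518.30 FPKM in white, 1.73-fold higher in white (log2 fold change -0.79, standard error 0.13, adjusted p = 0.00257 from limma). Glutathione reductase (GR1, Cg9g012790) had 41.81 to 47.64 FPKM in red and 40.87 to 43.21 FPKM in white (adjusted p = 0.259 from limma). The peroxidase gene Cg5g002990 (GPX6) was the most abundant of the list, with 862.79 to 969.80 FPKM in red and 908.20 to 952.38 FPKM in white (adjusted p = 0.798 from limma). Neither gene separated the cultivars.

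Among the genes that break glutathione down, Cg4g000190 (GGCT2;2) was highest, with 621.50 to 739.01 FPKM in red and 782.05 to 856.86 FPKM in white (adjusted p = 0.0757 from limma). The glyoxalase gene Cg2g045220 had 367.82 to 417.04 FPKM in red and 404.07 to 471.13 FPKM in white (adjusted p = 0.213 from limma). Cg5g033090, which encodes S-nitrosoglutathione reductase, was 1.19-fold higher in red (adjusted p = 0.0324 from limma), but not under 7 alternative settings, among them leaving out any 1 library except red replicate 1 (adjusted p 0.0566 to 0.0924). The phytochelatin synthase gene Cg5g033650 (PCS1) was lower, with 12.05 to 13.06 FPKM in red and 16.83 to 20.86 FPKM in white (adjusted p = 0.00429 from limma). Cg3g013800, similar to the plastid glutathione transporter CLT2, was lower as well, with 0.84, 1.08 and 1.10 FPKM in red and 3.66, 3.54 and 2.86 FPKM in white (log2 fold change -1.64, standard error 0.23, adjusted p = 0.00139 from limma).

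Only 2 of the 7 genes similar to vacuolar conjugate pumps were tested. Cg2g039530 (ABCC2) had 17.83 to 26.73 FPKM in red and 17.16 to 17.71 FPKM in white (adjusted p = 0.110 from limma, and 0.0256 without red replicate 2). Cg4g013360 (ABCC3) was lower in red, with 7.37, 7.25 and 8.05 FPKM against 11.60, 15.51 and 15.05 FPKM (log2 fold change -0.88, standard error 0.14, adjusted p = 0.00250 from limma).

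Flavonoid enzymes and vacuolar import proteins around TT19 were listed by 11 Arabidopsis hits and gave 48 genes, 14 of them tested. Of these 4 passed both thresholds (28.6%, against 6.76% of all tested genes), all as higher in red. The number was 2 without red replicate 1, red replicate 2 or white replicate 2. Cg2g009120, Cg5g007630 and Cg2g009540 reached a mean of 1 FPKM only in red. The filter thus admitted them through red, and their direction is not independent of it. Flavonoid genes of these cultivars were already known to differ when the list was made, so it is not independent evidence. Cg2g009120, similar to the MATE transporter TT12, which acts at the vacuole in the same route as TT19, had 4.09, 3.11 and 4.41 FPKM in red and was listed at 0 in all white libraries (adjusted p = 0.000128 from limma).

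The other 3 were the F3'H-like cytochrome P450 gene Cg5g007630 and the chalcone synthase-like genes Cg3g016190 and Cg2g009540. Cg5g007630 had 2.55 to 3.81 FPKM in red and was listed at 0 in every white library. Cg3g016190 had 3.34 to 7.22 FPKM in red and 0.51 to 1.83 FPKM in white. For Cg2g009540 the values were 2.50 to 2.99 FPKM in red and 0.05 to 0.72 FPKM in white. The flavonoid enzyme gene with the highest mean, Cg1g002060 (F3H), had 193.75 to 311.17 FPKM in red and 116.46 to 220.20 FPKM in white, with overlap (adjusted p = 0.121 from limma). Next was the F3'H-like gene Cg5g011190, higher in red at the adjusted p alone, with 180.82 to 454.24 FPKM in red and 94.65 to 127.77 FPKM in white. Among the import genes the proton pump gene Cg1g013430 (AHA10) was highest, with 181.55 to 328.78 FPKM in red and 114.72 to 122.96 FPKM in white (adjusted p = 0.00574 from limma). The MATE transporter gene Cg9g027320 (FFT) lay the other way, with 20.94 to 26.23 FPKM in red and 32.59 to 37.05 FPKM in white (log2 fold change -0.56, adjusted p = 0.00576 from limma). In these libraries the TT12-like gene Cg2g009120 was thus measured in red, while the TT19-like gene was listed at 0 in both cultivars. The other genes with the hit TT12, Cg2g008620, Cg2g008630 and Cg2g009110, were listed at 0 in every library too. The authors' mean normalized counts for them were 0.185, 2.65 and 0, so reads were counted for Cg2g008630.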

How the data were processed

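RNA of ripe sarcocarp from 3 repeats per cultivar was sequenced by the authors, who trimmed reads with Trimmomatic and aligned them with STAR 2.7.1a to version v1.0 of the C. maxima genome. RSEM 1.3.1 gave the deposited FPKM of each gene, listed to 2 decimals. RSEM divides reads shared by similar copies. A deposited mean normalized count (signal pooled over the 6 libraries, from featureCounts 2.0.1 and DESeq2) was used only as the authors' mean. The deposited fold changes and p-values of the authors' own comparison, and the table of their differentially expressed genes, were not used. Per-library counts were not used here, so no counting interval is given.

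The 14158 genes that averaged 1 FPKM or more in either cultivar entered limma 3.58.1 (R 4.3.3) as log2(FPKM + 0.1), with cultivar as the only term, empirical Bayes with a mean-variance trend and Benjamini-Hochberg adjustment. The method was tested on simulated data with normal noise on the log2 scale. That simulation did not model values at the floor of FPKM or reads shared between copies. The study's count model does not apply to FPKM. Alternatives were other pseudocounts, filters, scalings and moderation settings, a replicate block and leaving out each library.

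Members and lists were chosen with earlier results of these data known. Named were members past both thresholds, the 5 highest of each cultivar, those listed at 0 in 1 cultivar, the TT19 hit and the highest of each class, and for the lists the genes past both thresholds and the highest of each role. Other members were described after their values were seen, as were Cg2g030170, Cg4g013360, Cg5g011190 and Cg9g027320. No sequence or gene position was used.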

Additional observations from a re-analysis of the deposited data

Results flagged for a closer look

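Of the 14 members listed at 0 FPKM in all 6 libraries, 3 had counted reads in the authors' separate counting, above the level of 3 counts over the 6 libraries (a mean of 0.5). The zeta gene Cg2g047120 had a mean normalized count of 69.3, although its neighbour Cg2g047110 had all of the zeta FPKM. The tau genes Cg7g013560 and Cg5g003060 had means of 0.899 and 0.573. Across all genes 1302 of the 11903 listed at 0 FPKM in every library lay above the same level. An FPKM of 0 is therefore a listed value here, and the cause of the difference between the countings was not tested.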

How the results depend on the processing

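Of the 289 values of named members under alternative settings, 287 kept their direction and whether they passed both thresholds together. By the adjusted p alone, 16 crossed 0.05 and 9 crossed 0.01. Those that crossed 0.01 were Cg3g017120 under 7 settings (0.0102 to 0.0241) and Cg7g020430 without red replicate 1 or white replicate 2 (0.0145 and 0.0117). The exceptions among the 289 were Cg2g020810, with a log2 fold change of 1.74 at a pseudocount of 1, and Cg5g036980, with -0.0059 without red replicate 1 and -0.0059 to 0.091 over the left-out libraries. The members past both thresholds, 2 higher and 3 lower in red, included the same 5 genes under every setting except a pseudocount of 1, which left 1 higher. With each library left out in turn there were 2 higher and between 3 and 4 lower. At the adjusted p alone the number of higher members was 7, and between 4 and 6 with each library left out. The number of flavonoid genes higher in red was 1 with a pseudocount of 1, 2 without a trend, and between 2 and 3 with each library left out, against 4. A pseudocount of 1 left 250 genes higher and 280 lower over all tested genes, against 440 and 517. The family's ratio of summed FPKM was 0.903, and 0.893 after median-ratio scaling. Same-numbered libraries did not deviate together (r from -0.04 to 0.03 across genes). This check showed no pairing by number, but with 3 libraries per cultivar it cannot exclude one. With a replicate block 2 members were higher and 3 lower at both thresholds, and 5 were higher and 8 lower at the adjusted p alone. Shallow values limit the members below about 1 FPKM, whose repeats were wide.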
